A study of Mus musculus with 26 samples.

Results

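Aquaporins are the channel proteins through which water, and for some members glycerol, crosses cell membranes. The mRNAs of 9 mouse aquaporin genes, *Aqp1*, *Aqp2*, *Aqp3*, *Aqp4*, *Aqp5*, *Aqp7*, *Aqp8*, *Aqp9* and *Aqp11*, were followed through the male tract of ArKI and WT mice. The genes were chosen by symbol, as 9 of the 23337 gene rows of the count tables. RNA-seq covered 2 epididymal regions, the initial segment (IS) and the caput, with 5 ArKI and 5 WT samples of each, and the testis, with 3 samples per genotype. ArKI mice carry a knockin allele in which arginines replace SUMO acceptor lysines, present in every cell and not limited to a tissue. ArKI and WT mice were 3 months old, on a mixed C57Bl/6N and 129 background, and no group was treated. Whole tissue was used, in which fewer cells of a type and less RNA per cell cannot be told apart.

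The fluid around sperm is changed on its way through the ducts. Efferent ducts and the proximal epididymis take up water and solutes, which concentrates sperm and lets the epithelium set the composition of the lumen. *Aqp9* encodes an aquaglyceroporin, a channel for water, glycerol and other small solutes, of the apical membrane of epididymal principal cells. *Aqp1* encodes a water channel of efferent duct epithelium and of blood vessel endothelium. *Aqp3* and *Aqp7* encode further aquaglyceroporins, the latter known from spermatids and adipocytes. *Aqp8* is a water channel gene of germ cells, and *Aqp11* encodes an intracellular aquaporin that is also known from spermatids. *Aqp2* is best known as the vasopressin-regulated channel of the kidney collecting duct, *Aqp4* as the water channel of astrocytes, and *Aqp5* as that of gland cells.

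IS libraries held 5829074 to 9770625 counts, caput libraries 4125768 to 11913469 and testis libraries 14077013 to 21376604. Levels are given as CPM, counts relative to library size after TMM scaling within each tissue, and as RPKM, the same value per kilobase of exon, where genes are compared. A count of 3, the smallest signal taken as seen, stood for 0.312 to 0.508 CPM in IS libraries, 0.248 to 0.684 CPM in caput libraries and 0.141 to 0.215 CPM in testis libraries, and covers counting error only. The tissue labels were checked against marker genes. The summed level of 4 IS principal cell markers was 13630 to 15200 CPM in the WT IS, against 487 to 1981 CPM in the WT caput. That of 4 caput principal cell markers was 1860 to 2927 CPM and 18240 to 24230 CPM in the same groups. Of these 4, *Lcn5* (means of 83.9 CPM in the WT IS and 15280 CPM in the WT caput) and *Spink11* (15.4 and 4698 CPM) were higher in the caput. *Crisp1* (2098 and 380 CPM) and *Crisp4* (422 and 302 CPM) were lower there, so the caput check rests on *Lcn5* and *Spink11*. The epididymal libraries shared a sequencing run and the testis libraries had another, and tissue and run cannot be told apart. By the study's methods the IS and caput came from the same set of mice of each genotype, but nothing in the labels says which samples share a mouse, so tests between segments treat them as independent.

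The bases before the transcription start of *Aqp9*, the most abundant aquaporin of the epididymis, and of *Aqp1* and *Aqp11*, which passed a genotype test, are shown as the sequences next to the genes on which the results turn. They were read 5′ to 3′ on the strand of the gene from RefSeq on GRCm38.p6, each 250 bases long and ending at the base before the start. Capitals mark AGAACA, the hexamer that steroid receptors recognise, searched on both strands. *Aqp9* has 2 RefSeq starts, and the one whose window holds the hexamer is shown, at chr9:71163290-71163539 on the minus strand. The *Aqp1* window is chr6:55336049-55336298 on the plus strand and the *Aqp11* window is chr7:97738248-97738497 on the minus strand.
Aqp9: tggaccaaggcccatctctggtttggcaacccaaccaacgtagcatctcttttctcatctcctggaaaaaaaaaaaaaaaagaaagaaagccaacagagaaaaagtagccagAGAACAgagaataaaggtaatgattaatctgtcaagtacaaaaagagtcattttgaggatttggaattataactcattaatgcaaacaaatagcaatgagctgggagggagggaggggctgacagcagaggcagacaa
Aqp1: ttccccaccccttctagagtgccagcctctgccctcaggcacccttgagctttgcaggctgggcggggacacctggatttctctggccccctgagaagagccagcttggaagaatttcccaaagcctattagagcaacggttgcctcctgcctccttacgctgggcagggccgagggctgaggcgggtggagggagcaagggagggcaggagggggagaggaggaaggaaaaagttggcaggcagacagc
Aqp11: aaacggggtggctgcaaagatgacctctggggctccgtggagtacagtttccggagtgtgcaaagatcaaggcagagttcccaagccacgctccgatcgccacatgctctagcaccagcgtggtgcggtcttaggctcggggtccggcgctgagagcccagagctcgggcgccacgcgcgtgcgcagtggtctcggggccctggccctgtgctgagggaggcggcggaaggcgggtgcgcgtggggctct

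The hexamer of *Aqp9* starts 138 bases before the start, and *Aqp2* and 1 of the 2 starts of *Aqp7* also have one, at 179 and 173 bases. The hexamer was present in 16.1% of 32851 RefSeq windows of this length. The palindrome of AGAACA and TGTTCT with any 3 bases between them was in 0.00913% of the windows and in none of those read for the aquaporins. These matches describe letters and not sites of binding.

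The order of the aquaporins differed between the epididymis and the testis. In the WT IS, *Aqp9* had 60.4 ± 4.2 RPKM (SD, n = 5) and *Aqp1* 41.2 ± 3.17 RPKM, and their samples did not overlap. *Aqp11* followed with 3.19 ± 0.36 RPKM and *Aqp4* with 0.348 ± 0.083 RPKM. The means of the other 5 genes were between 0 and 0.2 RPKM, and their ranges overlapped each other. In the WT caput the order among the 9 genes was *Aqp9* with 37.1 ± 2.8 RPKM, *Aqp1* with 8.78 ± 0.63 RPKM and *Aqp11* with 3.22 ± 0.60 RPKM, again without overlap between these neighbours. *Aqp6*, which is not among the 9, had 5.01 ± 3.67 RPKM there, from 1.06 to 9.82 RPKM, and overlapped both *Aqp1* and *Aqp11*.

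The WT testis had *Aqp11* at the top, with 119 ± 4.28 RPKM (SD, n = 3), and then *Aqp7* with 73.6 ± 6.01 RPKM. *Aqp9* had 27.9 ± 2.27 RPKM there and *Aqp8* 21.6 ± 1.6 RPKM, each apart from its neighbours in all samples. *Aqp2* had 4.03 ± 0.94 RPKM. *Aqp3* with 0.737 ± 0.106 RPKM and *Aqp1* with 0.707 ± 0.138 RPKM overlapped. *Aqp5* had 0.272 ± 0.179 RPKM, and *Aqp4* had 1 count in each WT testis sample.

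**Figure D1:**
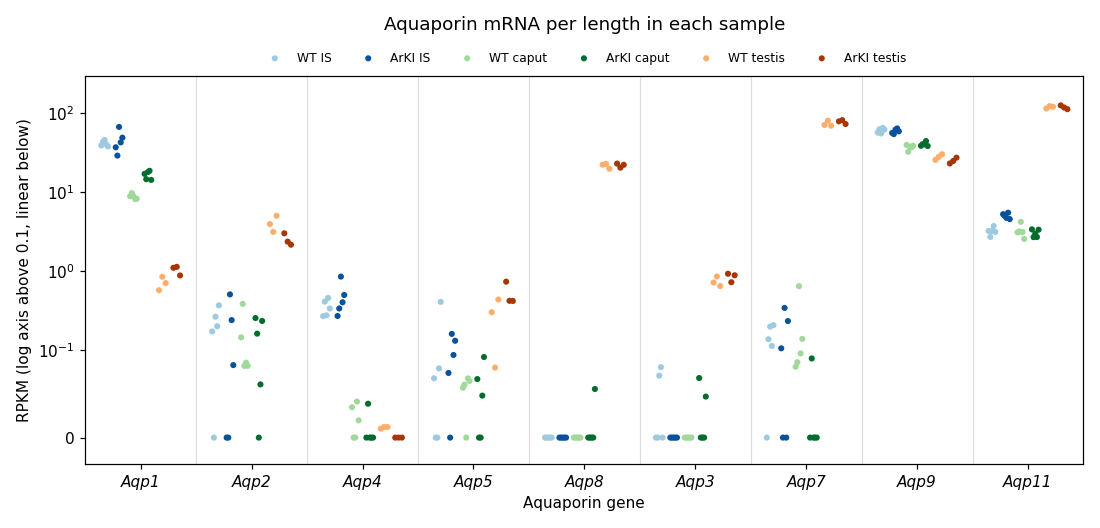
RPKM of the 9 aquaporin genes in each of the 26 samples, on an axis that is logarithmic above 0.1 RPKM and linear below, with 1 point per sample and colours for tissue and genotype. *Aqp9* and *Aqp1* led in the epididymis, while *Aqp11* and *Aqp7* led in the testis and *Aqp8* had at most 1 count in any epididymal sample.

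Summed over the 9 genes, aquaporin mRNA was 105.6 ± 4.27 RPKM in the WT IS, 49.5 ± 2.48 RPKM in the WT caput and 248.2 ± 10.1 RPKM in the WT testis. *Aqp9* made up 57.2 ± 2.71% of this sum in the WT IS and 74.8 ± 2.84% in the WT caput. The share of *Aqp1* was 39.0 ± 2.9% and 17.8 ± 1.93% in these segments. In the testis *Aqp11* held 48.1 ± 0.73% of the sum and *Aqp7* 29.6 ± 1.47%. These shares rest on exon lengths from GENCODE and not from the annotation used for counting.

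**Figure D2:**
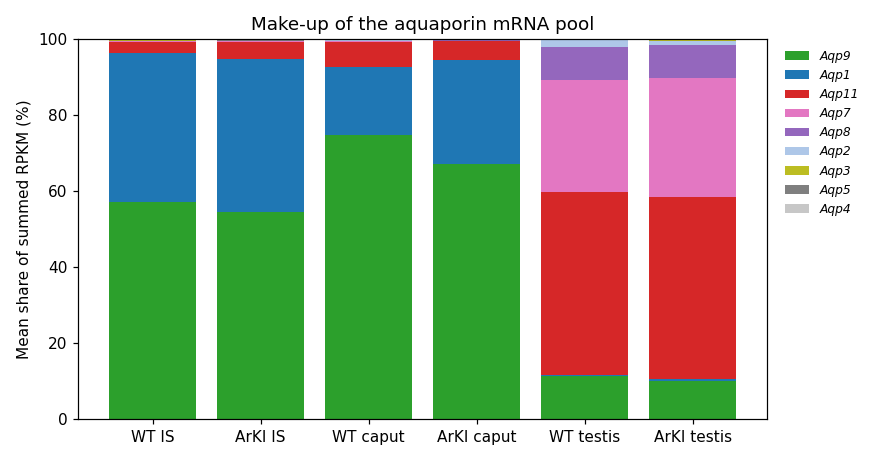
Mean share of each aquaporin in the summed RPKM of the 9 genes, in percent, for the 6 groups (5 samples each in the IS and caput, 3 each in the testis). The *Aqp1* share was 17.8% in the WT caput and 27.3% in the ArKI caput, and *Aqp11*, *Aqp7*, *Aqp9* and *Aqp8* held the 4 largest shares in the testis of both genotypes.

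The first question was how the aquaporins differ between the segments of WT mice. Of the 4 members that passed the filter on low counts, 2 were lower in the caput by the study's limits of FDR (below 0.01) and fold change (above 2), *Aqp1* and *Aqp4*. Of the 13787 genes tested, 20.8% passed and 9.71% were lower. The IS had 102, 114, 120, 106 and 99.7 CPM of *Aqp1*, and the caput had 23.3, 25.5, 23.4, 21.5 and 21.6 CPM. Every IS sample was above every caput sample, with a log2 fold change of -2.21 (SE 0.064, edgeR adjusted p = 1.18e-16). *Aqp4* had 13 to 21 counts in each WT IS sample and 0 to 2 in each WT caput sample, and was at least 6.08-fold lower in the caput. It passed the filter only through the IS, where it is high, so that its direction was fixed by the filter and the count of 2 is not read against the share of all genes.

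*Aqp9* was 1.61-fold lower in the WT caput than in the WT IS, less than the fold limit. Its samples were at 176, 195, 172, 203 and 193 CPM in the IS and at 123, 101, 118, 115 and 121 CPM in the caput. The groups were apart, as in 57.7% of all genes, with a log2 fold change of -0.69 (SE 0.057, edgeR adjusted p = 1.58e-09). *Aqp11* had 11.9 ± 1.34 CPM in the IS and 12.0 ± 2.23 CPM in the caput, and the 95% interval of the log2 fold change ran from -0.225 to 0.288 (edgeR adjusted p = 0.828). At an FDR below 0.05 without a fold limit, *Aqp9* passed beside *Aqp1* and *Aqp4*, all lower in the caput. By this rule 71.2% of all genes passed and 35.8% were lower, and for *Aqp4* nothing is read from these shares.

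The second question was whether ArKI mice differ from WT mice in each tissue. None of the 4 aquaporins tested in the IS, of the 3 in the caput or of the 8 in the testis passed the study's thresholds, which were an FDR below 0.01 for epididymal and 0.2 for testicular samples and more than a 2-fold change. Among all genes tested, 4.04% passed in the IS, 4.98% in the caput and 0.833% in the testis by edgeR's quasi-likelihood test. DESeq2 and limma voom also gave 0 members in each tissue. At an unadjusted p below 0.05 there were 1, 1 and 3 members in these tissues, against 39.7%, 37.7% and 13.1% of all genes. Of the 3 in the testis, *Aqp5* passed the filter only through the ArKI group, so that count is not read against the share of all genes. Without the fold limit and at an FDR below 0.05, *Aqp11* passed in the IS and *Aqp1* in the caput, both higher. In the IS 29.6% of all genes passed, 15% of all being higher and 14.6% lower, and in the caput 27.7% passed, 13.7% higher and 14% lower. No member passed in the testis, where 1.96% did.

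*Aqp1* was higher in the ArKI caput. Its level was 44.7, 38.3, 47.2, 48.9 and 37.5 CPM in the ArKI samples, against the WT values of 21.5 to 25.5 CPM given above. All 5 ArKI samples lay above all 5 WT samples, as 20.1% of all genes did in one direction or the other. The means were 43.3 ± 5.16 and 23.1 ± 1.66 CPM, a 1.88-fold difference (log2 fold change 0.91, SE 0.082, edgeR adjusted p = 3.16e-07), below the fold limit of 2. The share of *Aqp1* in the summed aquaporin RPKM was 27.3 ± 1.98% in the ArKI caput and 17.8 ± 1.93% in the WT caput.

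In the IS the same gene did not pass. ArKI samples had 97.1, 76.2, 176, 112 and 129 CPM, which spread on both sides of the WT range of 99.7 to 120 CPM. The log2 fold change was 0.13 (SE 0.21, 95% interval -0.341 to 0.605, edgeR adjusted p = 0.688). Without ArKI replicate 3, the highest sample, it was -0.06. The same library had the highest *Aqp4* level of all samples, with 5.02 CPM. Among epididymal samples it also had the highest summed level of 6 markers listed for multiciliated cells of efferent ducts. This was 234 CPM, against 139 to 184 CPM in the other ArKI IS samples and 117 to 137 CPM in the WT IS samples. Caput sums were 139 to 158 CPM in WT and 117 to 162 CPM in ArKI samples. Most of the WT sums was *Ccno*, with means of 89.1 CPM in the IS and 140 CPM in the caput, where *Foxj1* had 1.18 CPM. In the ArKI IS *Ccno* was lower, at 76.6 CPM, and the sum is not read as a level of these cells. Of the 5 of these markers tested in the IS, 4 rose and 1 fell in ArKI mice at an FDR below 0.05. *Gm606* had 8 to 33 counts in WT and 21 to 85 in ArKI samples, and *Ccdc67* 4 to 15 and 11 to 27. Both passed the filter only through the ArKI group, so this count is not read against a share of all genes. The part of multiciliated cells in the *Aqp1* values was not tested.

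**Figure D3:**
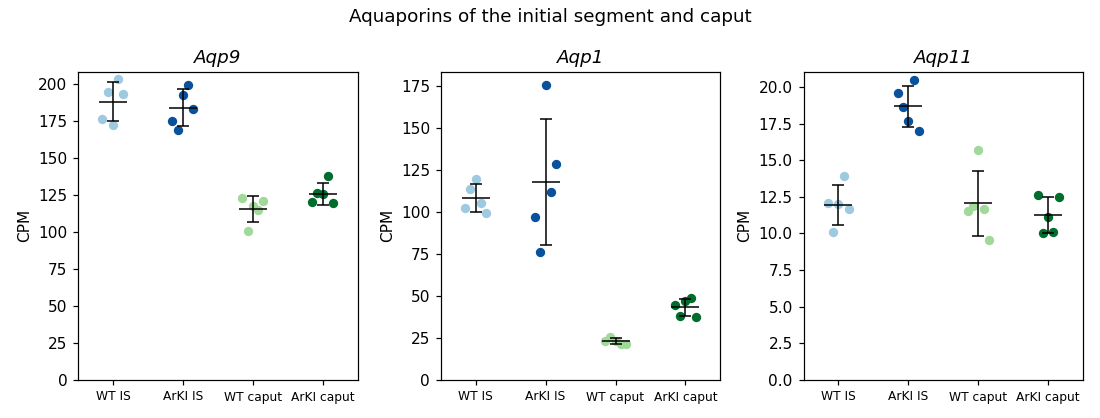
CPM of *Aqp9*, *Aqp1* and *Aqp11* in the 20 epididymal samples, with 1 point per sample and black bars for the mean and SD of 5 samples. The ArKI caput samples of *Aqp1* (37.5 to 48.9 CPM) and the ArKI IS samples of *Aqp11* (17.0 to 20.5 CPM) lay above all WT samples of the same segment, while *Aqp9* overlapped between genotypes.

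Some endothelial markers were also higher in the ArKI caput. The summed level of 10 markers, none of them at 0, was 95.0 to 101 CPM in the WT caput and 109 to 150 CPM in the ArKI caput. Among these, 3 of 10 rose, 7 did not pass and 0 fell at an FDR below 0.05, where 13.7% of all genes rose and 14% fell, with a median log2 fold change of 0.25 against 0.00168 over all genes. They were *Kdr* (log2 fold change 0.91), a vascular growth factor receptor, *Plvap* (0.95), a protein of fenestrated endothelium, and the adhesion molecule *Pecam1* (0.42). In the IS all 10 fell, as 14.6% of all genes did, with a median log2 fold change of -0.50 and sums of 213 to 268 CPM in WT and 147 to 174 CPM in ArKI mice, where *Aqp1* did not pass the test. *Aqp1* itself was not on this list. Caput principal cell markers summed to 15290 to 17020 CPM in the ArKI caput, below the 18240 to 24230 CPM of the WT caput, with 3 of 4 lower. The other, *Crisp1*, had 956 ± 1136 CPM in the ArKI caput and 380 ± 346 CPM in the WT caput. Of these markers *Crisp1* and *Crisp4* were higher in the WT IS than in the WT caput, as given above. The part of endothelial or principal cells in the *Aqp1* level was not tested.

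**Figure D4:**
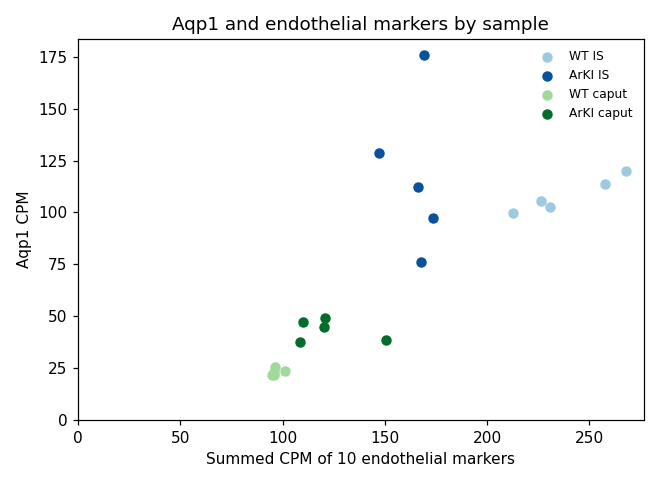
*Aqp1* CPM against the summed CPM of 10 endothelial markers in the 20 epididymal samples, 1 point per sample. Both measures were lowest in the WT caput, and the ArKI IS samples had marker sums of 147 to 174 CPM, below the 213 to 268 CPM of the WT IS, at *Aqp1* levels of 76.2 to 176 CPM.

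*Aqp11* was higher in the ArKI IS. WT samples had 12.0, 10.1, 12.0, 13.9 and 11.7 CPM, and ArKI samples had 19.6, 18.7, 17.6, 20.5 and 17.0 CPM. The groups did not overlap, as in 20.2% of all genes, and the difference was 1.57-fold (log2 fold change 0.65, SE 0.101, edgeR adjusted p = 6.1e-05). Markers of other cell types also differed between these groups. Smooth muscle markers summed to 545 to 632 CPM in WT and 238 to 422 CPM in ArKI samples, with 5 of 5 lower at an FDR below 0.05. The 4 genes listed for caput principal cells summed to 1860 to 2927 and 575 to 834 CPM, with 2 of 4 lower. Of all genes 14.6% were lower. *Crisp1* made up most of the latter sum, with means of 2098 CPM in WT and 350 CPM in ArKI samples, and *Crisp4* had 422 and 257 CPM. Both were higher in the WT IS than in the WT caput. *Lcn5* had 83.9 and 61.2 CPM in the IS, and *Spink11* 15.4 and 6.9 CPM. IS principal cell markers summed to 13630 to 15200 CPM in the WT IS and 10750 to 12070 CPM in the ArKI IS, with 3 of 4 lower. Their part in the *Aqp11* level was not tested. In the caput the samples overlapped, with 11.5, 11.9, 15.7, 11.6 and 9.53 CPM in WT and 12.6, 10.04, 11.1, 10.1 and 12.5 CPM in ArKI mice. The log2 fold change was -0.09 there (95% interval -0.36 to 0.171, edgeR adjusted p = 0.638).

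*Aqp9*, the leading aquaporin of both segments, did not pass a genotype test. In the IS, ArKI samples had 175, 169, 193, 200 and 183 CPM, against 172 to 203 CPM in WT mice, and the 95% interval of the log2 fold change was -0.143 to 0.0911 (edgeR adjusted p = 0.774). In the caput they had 120, 126, 126, 138 and 119 CPM against 101 to 123 CPM, with an interval of -0.00272 to 0.244 (edgeR adjusted p = 0.142). *Aqp4*, with 12 to 35 counts per ArKI IS sample and 13 to 21 per WT IS sample, gave a log2 fold change of 0.44 (SE 0.29, edgeR adjusted p = 0.274), or 0.13 without ArKI replicate 3.

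The genotype difference itself was then compared between the segments, with caput minus IS of the log2 fold changes as the measure. Of 4 members tested 2 passed at an adjusted p below 0.05, where 15.1% of 14329 genes did, 7.38% with the caput effect above the IS effect and 7.77% below it. For *Aqp11* the difference was -0.75 (SE 0.16, edgeR adjusted p = 0.00177). *Aqp1* gave 0.78 (SE 0.239, edgeR adjusted p = 0.0356), and this call was lost without any filter (adjusted p = 0.0517) and when any of 13 of the 20 samples was left out, with adjusted p-values up to 0.0722. These were ArKI replicates 1 and 4 and WT replicates 2, 3 and 4 of the IS, and ArKI replicates 1, 3 and 4 and all 5 WT replicates of the caput. Without ArKI IS replicate 3 the difference was 0.96. Over the 7 alternatives that kept all samples the edgeR, DESeq2 or limma adjusted p was 0.0031 to 0.0517. In means, *Aqp1* was 4.69 times as high in the IS as in the caput of WT mice and 2.72 times as high in ArKI mice. The corresponding ratios of *Aqp11* were 0.991 and 1.66.

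Over the 20 epididymal samples the genes whose log2 CPM followed *Aqp1* most closely, among 14040 compared, were *Slc39a4*, a zinc transporter gene (Pearson's r = 0.973), *Sox13* (0.971) and *Fam84b* (0.97). For *Aqp11* they were *Eri2* (0.895), *Jub* (0.88) and *Tspan5* (0.867). The samples share 4 groups and the same libraries, and the likeness is a description.

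In the testis *Aqp2* came nearest to a difference. WT samples had 5.58, 4.45 and 7.11 CPM, and ArKI samples 4.26, 3.34 and 3.06 CPM. All ArKI samples were lower, as 17.8% of all genes were apart in one direction or the other. The log2 fold change was -0.69 (SE 0.182, edgeR adjusted p = 0.0503), which met the FDR limit of 0.2 but not the fold limit. Leaving out WT replicate 3, the highest sample, gave -0.51, with an adjusted p of 0.394. Under the 8 alternatives that kept all samples the adjusted p was 0.0107 to 0.116.

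*Aqp1* had 1.5, 2.22 and 1.85 CPM in the WT testis and 2.88, 2.97 and 2.31 CPM in the ArKI testis. These samples were also apart, with a log2 fold change of 0.56 (SE 0.217, edgeR adjusted p = 0.247). *Aqp5* had 9, 2 and 11 counts in WT and 21, 16 and 13 in ArKI samples, a log2 fold change of 0.89 (SE 0.425, edgeR adjusted p = 0.375), which was 0.49 without WT replicate 2 and 1.35 without WT replicate 3. This gene passed the filter only through the ArKI group, where it is high, and nothing is read from its direction. *Aqp3* had 1.30 ± 0.19 and 1.49 ± 0.19 CPM (edgeR adjusted p = 0.826).

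The abundant testis members overlapped between genotypes. *Aqp11* had 446 ± 15.99 CPM in WT and 443 ± 24.8 CPM in ArKI mice, with a 95% interval of the log2 fold change of -0.137 to 0.116. *Aqp7* had 186 ± 15.2 and 197 ± 11.3 CPM, with an interval of -0.0638 to 0.218, and *Aqp8* had 32.2 ± 2.39 and 32.6 ± 1.96 CPM, with an interval of -0.163 to 0.189. *Aqp9* had 86.9 ± 7.08 and 78.0 ± 6.66 CPM (interval -0.316 to 0.00102, edgeR adjusted p = 0.386). The 8 haploid germ cell markers summed to 15880 to 19530 CPM in the WT testis and 17380 to 20290 CPM in the ArKI testis, and none of the 8 passed edgeR's test at an FDR below 0.05, with 1 at an unadjusted p below 0.05.

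**Figure D5:**
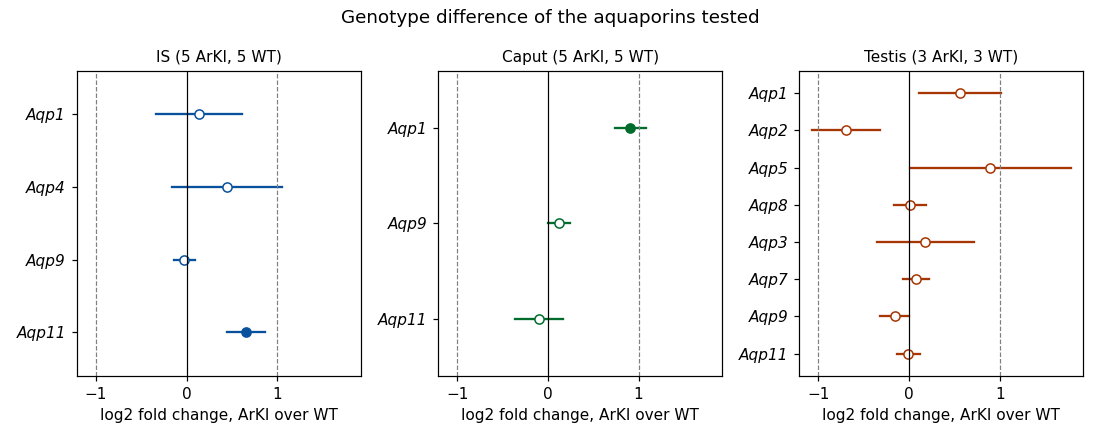
Log2 fold change of ArKI over WT for the aquaporins tested in each tissue, with the 95% interval from edgeR, filled points for an FDR below 0.05 and dashed lines at the fold limit of 2. The filled points are *Aqp11* in the IS at 0.65 and *Aqp1* in the caput at 0.91.

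Between tissues, 6 of 7 members tested passed for the WT testis against the WT IS and 5 of 7 against the WT caput, where 69.3% of 16402 genes passed in each. Against the IS 4 were higher and 2 lower (38.5% and 30.9% of all genes), and against the caput 4 were higher and 1 lower (38.1% and 31.2%). The median log2 fold change of all genes in these contrasts was 0.193 and 0.158 with TMM and -0.218 and -0.233 by library size only. *Aqp2*, *Aqp7* and *Aqp8* passed the filter only through the testis and *Aqp4* only through the IS, so their directions were fixed by the filter and these counts are not read against the shares of all genes. *Aqp11* exceeded its IS level in the testis by a log2 fold change of 5.65 (SE 0.087), and *Aqp7* by 9.48 (SE 0.222). *Aqp8* had 553, 472 and 414 counts in the WT testis and 0 in every WT epididymal sample, so that it was at least 88.3-fold higher than in the IS and at least 95-fold higher than in the caput. *Aqp1* had a log2 fold change of -5.45 for testis against IS (SE 0.117), the lower level being in the testis. *Aqp9* was at 79.7, 87.2 and 93.9 CPM in the WT testis, below the caput samples on the scale set within each tissue, but in a joint fit its log2 fold change against the caput was -0.01 (SE 0.070), and it lay between -0.40 by library size only and 0.11 by DESeq2. All these differences are between runs as well as between tissues.

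Members below the filter were compared by counts. *Aqp3* and *Aqp8* had at most 1 count in any epididymal sample, and *Aqp2* at most 5. *Aqp5* had at most 2 counts there apart from 7 in WT IS replicate 5. In the caput *Aqp7* had 2, 2, 14, 2 and 3 counts in WT and 0, 1, 0, 0 and 0 in ArKI samples, ranges that overlap in CPM. The difference of mean log2(CPM + 0.5) was -0.78 (exact permutation test, two-sided, p = 0.024, n = 5 and 5), and -1.92 with a pseudocount of 0.1 (p = 0.024 by the same exact test), so its size depended on the pseudocount. It was the 1 of 12 such genotype tests with an unadjusted p below 0.05. Without WT replicate 3, which had 14 counts, it was -0.48 (exact permutation p = 0.032).

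Haploid germ cell markers fell beside *Aqp7*, with 8 of 8 lower in the ArKI caput and sums of 223 to 352 CPM in WT and 36.05 to 98.97 CPM in ArKI mice. *Prm1*, *Tnp1*, *Tnp2* and *Gapdhs* passed the filter only through the WT group, so this count is not read against a share of all genes. Adipocyte markers summed to 0.485 to 30.6 CPM in the WT caput and 0.684 to 5.68 CPM in the ArKI caput. The part of either cell type in the *Aqp7* counts was not tested.

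3 other aquaporin rows were in the tables. *Aqp6*, whose product is known from intracellular vesicles of the kidney, had 198, 20, 129, 31 and 90 counts in the WT caput and 16, 50, 13, 18 and 33 in the ArKI caput. Its samples overlapped (log2 fold change -1.80, SE 0.808, edgeR adjusted p = 0.143). Without ArKI replicate 2, which had 50 counts, the log2 fold change was -2.49 (edgeR adjusted p = 0.0473), while leaving out any other single sample gave -2.06 to -1.38, with adjusted p-values of 0.087 to 0.289. Over the alternatives that kept all samples the adjusted p was 0.0342, with all 4 epididymal groups in 1 fit, to 0.319, with the replicate block. It had at most 2 counts in any IS or testis sample. *Mip*, the lens aquaporin, had at most 2 counts in any sample. *Aqp12* had at most 1 count in the epididymis and 5 to 10 in the testis.

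Aquaporins work beside ion transporters that set the osmotic gradient. Of 20 genes for such transporters and carbonic anhydrases, 18 were tested in the IS, where 5 rose, 2 fell and 11 did not pass at an FDR below 0.05 in ArKI mice, beside 15% of all genes that rose and 14.6% that fell. *Scnn1b*, a subunit of the epithelial sodium channel, rose from 2.83 to 12.7 CPM in the mean (log2 fold change 2.18, SE 0.17), and *Scnn1a*, another subunit, by 0.39. The carbonic anhydrase *Car2* rose by 0.56. Among those that fell was the carbonic anhydrase *Car14*, by 0.63, named after its value was seen.

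In the caput 19 were tested, of which 7 rose, 3 fell and 9 did not pass, beside 13.7% and 14% of all genes that rose and fell. *Atp1b1*, a sodium pump subunit, rose by a log2 fold change of 0.67 (SE 0.062) and *Scnn1a* by 0.46. *Scnn1b* is among the 7, with 1 to 7 counts in WT and 22 to 53 in ArKI samples. *Scnn1g*, also tested and named after its counts were seen, had 3 to 6 counts in WT and 5 to 25 in ArKI samples. Both passed the filter only through the ArKI group, where they are high. Nothing is read from their direction, and the count of 7 is not read against the share of all genes. The genes that fell, also named after their values were seen, were the chloride channel *Cftr* (13.3 to 5.83 CPM, log2 fold change -1.14), the bicarbonate transporter *Slc4a4* (38.5 to 25.7 CPM, -0.57) and the carbonic anhydrase *Car12* (128 to 94.9 CPM, -0.44). The median log2 fold change of the list was 0.12 in the IS and 0.18 in the caput. None of 16 tested passed in the testis by edgeR, with 2 at an unadjusted p below 0.05.

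Glycerol is the second cargo of *Aqp3*, *Aqp7* and *Aqp9* channels. Of 8 genes of glycerol handling tested in the IS, 1 rose and 4 fell, beside 15% and 14.6% of all genes. The lipase *Pnpla2* fell by 0.20 on the log2 scale, glycerol kinase (*Gyk*) by 0.17 and *Gpd2* by 0.24, and *Mgll* rose by 0.14. Of 9 in the caput, 2 rose, *Mgll* by 0.34 and *Gyk* by 0.17, beside 13.7% of all genes, and 1 fell. This was the testis glycerol kinase *Gk2*, with 12 to 22 counts in WT and 0 to 2 in ArKI samples, at least 5.32-fold lower. It passed the filter only through the WT group, so its direction was fixed by the filter and the count is not read against the share of all genes. The haploid germ cell markers were lower in the same samples, with the sums of 223 to 352 CPM in WT and 36.05 to 98.97 CPM in ArKI mice given above, and their part in the *Gk2* counts was not tested. None of the 9 glycerol genes passed in the testis by edgeR, with 1 at an unadjusted p below 0.05. *Gyk* stood at 420 ± 25.9 CPM in the WT IS and 165 ± 11.3 CPM in the WT caput.

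Among 5 receptor genes listed for these ducts, *Esr1*, which encodes oestrogen receptor alpha, rose from 30.5 ± 3.16 to 50.04 ± 16.1 CPM in the ArKI IS (log2 fold change 0.72, edgeR adjusted p = 0.0325). Its highest sample, with 75.1 CPM, was ArKI replicate 3, which had the highest multiciliated marker sum of the epididymal samples and without which the log2 fold change was 0.53 (edgeR adjusted p = 0.00833). Most of that sum in WT samples was *Ccno*, as given above, and the part of multiciliated cells in the *Esr1* level was not tested. The vasopressin receptor *Avpr1a* also rose in the IS, by 0.81. Of 4 receptors tested there, 2 rose and 1 fell at an FDR below 0.05, beside 15% and 14.6% of all genes. In the caput *Esr1* rose by 0.65, while *Esr2* fell by 0.71. Of the 4 tested in the caput, 1 rose and 2 fell, beside 13.7% and 14% of all genes. None of the 3 receptors tested in the testis passed by edgeR, and 0 had an unadjusted p below 0.05.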

How the data were processed

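Reads of IS and caput (5 ArKI and 5 WT samples each) and testis (3 and 3) were aligned by the authors to mm10 with STAR, and uniquely mapped reads per RefSeq gene were counted with Subread 1.5.1, as named in the submitters' processing notes. The authors deposited raw counts without normalization. The labels name an unstranded TruSeq kit and the paper a stranded one, and the strand setting of counting is not given in the sources used here. No exon of another gene overlapped a member.

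Counts were filtered by filterByExpr (minimum count 10, minimum total 15), scaled by TMM, and tested with the robust quasi-likelihood test of edgeR 4.0.16 in R 4.3.3 over all genes, with Benjamini-Hochberg adjustment, in place of the ROTS test of the paper. The fits were tested on simulated data. Each genotype comparison used its own 2 groups, WT tissues were fitted together for testis contrasts, and the 4 epididymal groups for the interaction. SE and intervals came from the F statistic. Genes below the filter were compared by exact permutation of log2(CPM + 0.5), where 5 against 5 samples cannot give p under 0.0079 and 3 against 3 none under 0.1. Folds against groups with at most 3 counts per sample were set against 3 counts per library. RPKM used exon unions of RefSeq-linked GENCODE transcripts on GRCm38. Alternatives included limma 3.58.1 and DESeq2 1.42.0. Replicate numbers come from the labels, and nothing says that they mark shared mice. Samples within a group are taken as separate mice, as in the paper, whereas IS and caput of a genotype came from the same mice and were tested as independent samples, since the pairs are not given. ChIP-seq and RT-qPCR data were not analysed here. Python 3.11.15 with matplotlib 3.10.9 made the figures.

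Members and lists were chosen with earlier results of these data known. All members and other aquaporin rows are named, with up to 4 genes of each list by smallest adjusted p (some are not reported here) and the 3 genes most alike in pattern to each member that passed a genotype test.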

Additional observations from a re-analysis of the deposited data

Results flagged for a closer look

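The genotype difference of 2 of 4 members differed between the segments at an adjusted p below 0.05, where 15.1% of all genes did. The log2 fold change of *Aqp1* was higher in the caput than in the IS by 0.777 (SE 0.239, edgeR adjusted p = 0.0356), and that of *Aqp11* was lower by a difference of -0.749 (SE 0.16, edgeR adjusted p = 0.00177). The *Aqp1* call was lost when any of 13 of the 20 samples was left out (adjusted p up to 0.0722) and without a filter (0.0517).

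4 samples stood apart from the others of their group by Dixon's criterion. They were *Aqp2* in WT caput replicate 2 (0.544 CPM, 5 counts), *Aqp5* in WT IS replicate 5 (0.729 CPM, 7 counts), *Aqp7* in WT caput replicate 3 (1.62 CPM, 14 counts) and *Aqp6* in ArKI caput replicate 2 (11.4 CPM, 50 counts). The criterion was applied to 24 groups of 5 samples, and chance marks about 1 in 20, or 1.2 here.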

How the results depend on the processing

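The rise of *Aqp11* in the IS and of *Aqp1* in the caput kept its direction and an adjusted p below 0.05 under every alternative run, with log2 fold changes of 0.65 to 0.68 and 0.91 to 0.94, and when single samples were left out (0.59 to 0.71 and 0.86 to 0.97). At a minimum of 10 counts in every sample, genes called fell to 350 in the IS, 311 in the caput, 75 in the testis, 1899 between WT segments, and 6872 and 6841 for testis against IS and caput, and members called fell to 1 between segments and 2 in each testis contrast, since fewer genes were tested. At an FDR below 0.05 without a fold limit, 3980, 3808, 311 and 9813 genes passed in the IS, caput, testis and between segments, with 1 member each in the IS and caput. Without a filter, 1 member, *Aqp7*, was called in the caput, and 1, *Aqp11*, in the interaction, where single samples left out gave 1 to 2. By library size only, *Aqp9* in the IS turned to 0.005037 and *Aqp11* in the testis to 0.007076. *Aqp9* in testis against caput turned to 0.1136 with RLE factors, 0.09974 at 10 counts, 0.1139 by DESeq2 and 0.03024 with the replicate block, and was -0.4007 by library size only (adjusted p = 6.49e-06). By library size only *Aqp9* in testis against IS was -1.104 and also called, giving 7 members, and without a filter 7 were called in each testis contrast. *Aqp5* in the IS turned to 0.1734 with a pseudocount of 0.1. The cause was not tested.

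With single samples left out, signs turned for *Aqp1* (-0.05699 to 0.2559) and *Aqp9* (-0.05737 to 0.004642) in the IS, *Aqp11* in the caput (-0.1682 to 0.01648), *Aqp8* (-0.0452 to 0.0627) and *Aqp11* (-0.05321 to 0.02575) in the testis, *Aqp11* between segments (-0.07806 to 0.1053), and *Aqp4* (-0.6353 to 0.01582) and *Aqp9* (-0.0908 to 0.03113) in testis against caput, none of which passed a test. Replicate numbers shared too little to pair samples (2 of 5 pairs were over a correlation of 0.1 between genotypes in each segment, 0 of 3 in the testis, 3 of 5 between WT segments and 1 of 5 between ArKI segments, and 2, 1, 3 and 2 samples correlated best with their own number), and the replicate block moved no count of members called. The *Aqp7* value without WT caput replicate 3 and the *Esr1* value without ArKI IS replicate 3 were chosen after seeing the data. Depth limits all members under 3 counts per sample.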
